A study of Mus musculus with 6 samples.

Results

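The 36 genes described here cover glucose entry, glycolysis, lactate production and export, the pyruvate dehydrogenase step, and the hypoxia-inducible factor (HIF) pathway. They were chosen by GENCODE M21 symbol, with no measured value in the rule but with earlier results of these data known. They filled 37 of the 55335 rows of the count table because 2 rows carry the symbol Aldoa. Bone marrow-derived macrophages (BMDMs) are macrophages grown from marrow progenitors in medium with macrophage growth factor. Here they came from young adult male C57BL/6 mice, and the library names mark all 6 libraries as wild type (WT). Culture lasted 6 d with 10% FBS and 20% L929-conditioned medium. Cells received PBS or lipopolysaccharide (LPS), the bacterial cell wall component sensed by TLR4, and total RNA was taken at 1 h. Each condition had 3 libraries, and the labels assign 1 PBS and 1 LPS library to each of batches 1, 2 and 3. The LPS dose and whether batches came from separate mice are not given in the sources used here, so the p-values measure the spread between these samples, which may be technical. Because the cells were bulk samples, a lower level can mean fewer expressing cells or less RNA per cell, and the 2 cannot be told apart.

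Library totals ranged from 37787611 to 41516330 counts. Levels are CPM, counts divided by the library total and corrected by TMM, a method that sets libraries to a common level over most genes. The TMM factors were 1.15 in the 3 PBS libraries and 0.864 to 0.872 in the 3 LPS libraries, so the choice of scaling matters for small differences. Dropping TMM and keeping only the library totals moved the median over all genes tested by -0.40 on the log2 scale, and upper quartile scaling moved it by -0.14. The macrophage identity of the cells was checked with 8 markers, which summed to between 29945 and 31229 CPM in PBS and between 35887 and 36245 CPM in LPS libraries. Lyz2 held most of each sum, with means of 23272 CPM in PBS and 24224 CPM in LPS libraries. Mean CPM went from 398 to 3623 for Cd14, from 3263 to 4163 for Csf1r and from 2329 to 2671 for Adgre1. For Cd68 it went from 677 to 788, for Itgam from 147 to 172, for Mertk from 109 to 106 and for Fcgr1 from 396 to 284. Dendritic cell markers were far lower but differed between groups. Their 4 genes summed to 3.15 to 4.01 CPM in PBS and 9.62 to 10.6 CPM in LPS libraries, none of the 4 was at 0 in every library, and their part in the results was not tested. The sums of the other lists in CPM were 14.1 to 16.1 in PBS and 18.6 to 20.6 in LPS libraries for 6 neutrophil genes, 11.3 to 12.2 and 13.1 to 14.3 for 4 fibroblast genes, 2.61 to 2.92 and 2.62 to 3.40 for 4 B cell genes, 0.525 to 0.797 and 0.353 to 0.566 for 3 NK cell genes, and 0.294 to 0.465 and 0.429 to 0.477 for 4 T cell genes. Of 4 erythroid genes, 3 were at or under 3 counts in every library.

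Glycolysis converts glucose to pyruvate, which is either oxidized in mitochondria through pyruvate dehydrogenase or reduced to lactate and exported. Macrophages exposed to LPS are known for a shift toward glycolysis and lactate release, and HIF-1α, the oxygen-regulated transcription factor encoded by Hif1a, is known to act on many glycolytic genes. In oxygenated cells the prolyl hydroxylases (Egln genes) mark HIF-1α protein for degradation, which is a control that RNA levels do not show.

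After 1 h of LPS, the glucose transporters Slc2a1 and Slc2a6, hexokinase Hk2, the regulator Pfkfb3, the lactate exporter Slc16a3, Hif1a, the hydroxylase Egln3 and the angiogenic factor Vegfa rose past both criteria of edgeR's quasi-likelihood test, which were adjusted p < 0.05 and a log2 difference of more than 1 in size. These 8 were 22.2% of the 36 rows tested, beside 10.5% of all 15687 genes tested. Shares like this are for genes chosen with earlier results of these data known. The single row that fell past both criteria was the low row of Aldoa (2.78% of rows, beside 10.4% of all genes). With the adjusted p alone, 19 rows (52.8%) rose, beside 32.9% of all genes, and 7 (19.4%) fell, beside 34.9%. In 20 rows all 3 LPS libraries lay above all 3 PBS libraries (background 33.9%), in 7 rows they all lay below (background 36.6%), and in 9 rows the groups overlapped. The median log2 fold change of the 36 rows was 0.10, and that of all genes tested was -0.01. Pdk4 was not tested, with 2, 1 and 3 counts in PBS and 5, 2 and 6 counts in LPS libraries.

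**Figure D1:**
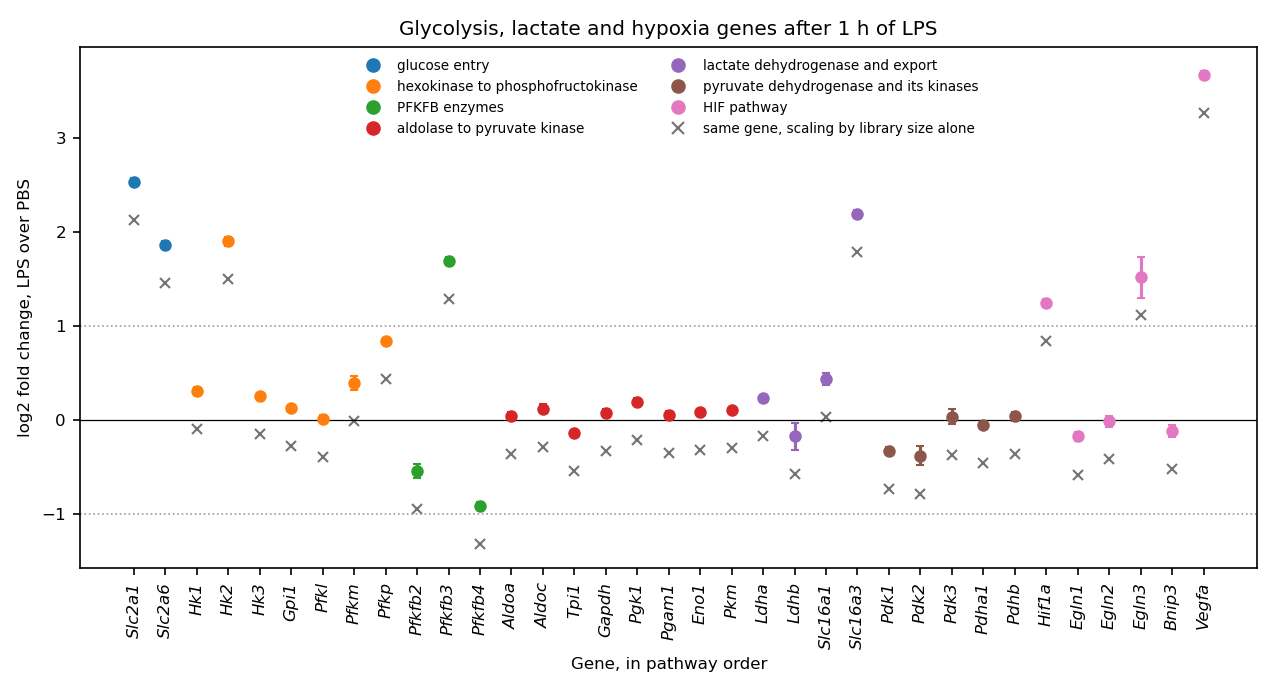
Log2 fold change (LPS over PBS) of the 35 tested genes in pathway order, as points with their SE and n = 3 libraries per group, coloured by role; crosses give the same gene with scaling by library size alone, and dotted lines mark -1 and 1. The 8 genes that rose stand between 1.24 and 3.67 while the enzymes from aldolase to pyruvate kinase lie near 0, with crosses below it.

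A window before a RefSeq start of each gene was searched for the core of the HIF response element, ACGTG or GCGTG on either strand. ACGTG also lies inside CACGTG, the E-box bound by MYC and other factors. In the 250 bases before the RefSeq start nearest to the annotated gene start (GRCm38.p6), 30 of the 36 genes (83.3%) held a core, beside 38.6% of windows of all genes. Of the 36 windows, 17 lay outside the GENCODE M21 gene, 12 partly inside it and 7 wholly inside it, the latter because RefSeq's start lies downstream of the earliest GENCODE transcript. The background takes in every gene with a listed RefSeq start, whether or not it was expressed here. The windows of the 36 genes were also richer in G and C, at a median of 61.6% beside 52% over all genes. Both cores contain CG, and the shares were not matched for base content or expression. Whether the motif is more frequent beyond this was not tested. Cores were found in 7 of the 8 genes that rose and in 23 of the 28 others, so the motif was frequent in both sets. The gene that rose without a core in its window was Vegfa. Only these 250 bases were searched, so a core elsewhere would be missed. A match to the NF-κB consensus was present in 4 of the 36 windows (11.1%), beside 7.09% of all genes. The windows below show 4 genes that rose and Ldha, whose level moved little. The Ldha window holds the motif 5 times over both strands, where each of its 2 CACGTG sequences counts once on each strand. Each is given 5′ to 3′ on the strand of the gene, those of Hif1a and Ldha lie inside the GENCODE gene (6492 and 4329 bases from its start to RefSeq's start), and capitals mark HIF response element cores or, in Vegfa, the NF-κB match.
Slc2a6, chr2:27027999-27028248, minus strand: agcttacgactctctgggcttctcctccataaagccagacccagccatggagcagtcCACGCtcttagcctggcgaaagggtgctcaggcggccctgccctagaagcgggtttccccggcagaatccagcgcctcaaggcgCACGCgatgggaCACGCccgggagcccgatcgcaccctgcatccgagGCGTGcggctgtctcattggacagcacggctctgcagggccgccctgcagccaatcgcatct
Hk2, chr6:82774455-82774704, minus strand: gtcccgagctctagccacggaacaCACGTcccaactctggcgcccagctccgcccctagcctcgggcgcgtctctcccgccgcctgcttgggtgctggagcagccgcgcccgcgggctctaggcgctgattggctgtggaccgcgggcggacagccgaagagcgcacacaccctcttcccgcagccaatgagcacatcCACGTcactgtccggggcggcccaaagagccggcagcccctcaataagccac
Hif1a, chr12:73907617-73907866, plus strand: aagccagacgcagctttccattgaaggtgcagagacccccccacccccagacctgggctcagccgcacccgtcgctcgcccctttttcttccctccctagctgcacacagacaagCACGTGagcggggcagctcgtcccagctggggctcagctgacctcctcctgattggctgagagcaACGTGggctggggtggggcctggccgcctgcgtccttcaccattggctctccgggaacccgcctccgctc
Vegfa, chr17:46032378-46032627, minus strand: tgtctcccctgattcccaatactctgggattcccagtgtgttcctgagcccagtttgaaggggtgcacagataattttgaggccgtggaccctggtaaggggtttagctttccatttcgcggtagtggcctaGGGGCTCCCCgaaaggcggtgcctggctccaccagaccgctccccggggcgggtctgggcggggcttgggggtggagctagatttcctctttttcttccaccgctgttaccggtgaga
Ldha, chr7:46845554-46845803, plus strand: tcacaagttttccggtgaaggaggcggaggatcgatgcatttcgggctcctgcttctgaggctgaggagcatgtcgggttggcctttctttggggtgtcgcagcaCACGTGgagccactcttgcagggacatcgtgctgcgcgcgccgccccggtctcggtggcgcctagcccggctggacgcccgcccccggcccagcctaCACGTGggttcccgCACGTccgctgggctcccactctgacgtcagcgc

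Of the Slc2a transporter genes on the lists used here, which do not cover the whole family, Slc2a1 and Slc2a6 rose. Slc2a3, Slc2a8 and Slc2a9 did not pass the adjusted p (log2 fold changes 0.03, -0.14 and -0.03, adjusted p = 0.693, 0.0591 and 0.601). These 3 are from the list of further glycolysis genes and were named after their values were seen. Slc2a1 (ENSMUSG00000028645, chr4:119108711-119137983) encodes GLUT1, the main glucose transporter of many cell types. It had 904, 855 and 876 counts in the PBS libraries and 3763, 3705 and 3526 counts in the LPS libraries. The lowest LPS library stood far above the highest PBS library, and in CPM the level went from 19.0 ± 0.035 to 110 ± 5.37 (SD, n = 3), a 5.79-fold rise (log2 fold change 2.53, SE 0.04, adjusted p = 5.47e-19). Slc2a6 (ENSMUSG00000036067, chr2:27021363-27027998), which encodes the lysosomal hexose transporter GLUT6, had 5769, 5680 and 5442 counts in PBS and 14943, 14461 and 14993 counts in LPS libraries. Its groups did not overlap either, and it rose 3.64-fold (log2 fold change 1.86, SE 0.03, adjusted p = 9.86e-19). Per kilobase of exon, Slc2a6 was the more abundant transporter in both conditions. Its level went from 37.9 ± 1.22 to 138 ± 0.739 CPM per kb while that of Slc2a1 went from 5.41 ± 0.010 to 31.3 ± 1.53 CPM per kb.

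Hexokinases trap glucose as glucose 6-phosphate, and among the 3 tested the change was uneven. Hk2, the inducible isozyme (ENSMUSG00000000628, chr6:82725025-82774454), had 2384, 2477 and 2427 counts in PBS and 6588, 6779 and 6243 counts in LPS libraries. It rose 3.73-fold in CPM (log2 fold change 1.90, SE 0.05, adjusted p = 7.27e-17), with all LPS libraries above all PBS libraries. Hk1, the housekeeping isozyme, went from 80.8 ± 2.73 to 100 ± 4.89 CPM, and Hk3, the abundant isozyme of myeloid cells, went from 292 ± 4.89 to 347 ± 12.4 CPM. Both of these smaller rises passed the adjusted p (log2 fold changes 0.31 and 0.25), but with scaling by library size alone they turned to -0.10 and -0.15. Shares within the family do not depend on the scaling. Per kilobase, Hk2 made up 8.70%, 9.22% and 9.16% of hexokinase RNA in the PBS libraries and 24.1%, 23.9% and 22.8% in the LPS libraries. Hk3 went from 81.3% ± 0.454 to 67.9% ± 0.545 and stayed the most abundant of the 3, and the family total rose from 97.4 ± 1.90 to 139 ± 5.72 CPM per kb.

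Phosphofructokinase-1 commits sugar to glycolysis, and its 3 subunit genes also moved apart. Pfkp, the platelet type, had 80.2, 79.5 and 79.9 CPM in PBS and 141, 144 and 143 CPM in LPS libraries. The groups were well separated and the 1.79-fold rise passed the adjusted p but not the fold criterion (log2 fold change 0.84, SE 0.03, adjusted p = 8.78e-14). Pfkm, the muscle type, went from 15.2 ± 1.29 to 20.0 ± 1.74 CPM (log2 fold change 0.40, adjusted p = 0.000117), a rise that was -0.01 with library size alone. Pfkl, the liver type, was at 49.5 ± 1.78 and 49.8 ± 2.38 CPM (log2 fold change 0.01, SE 0.04, adjusted p = 0.888). Pfkp went from 33.3% ± 1.25 to 44.2% ± 0.825 of the family per kilobase and Pfkl from 41.4% ± 0.287 to 30.9% ± 1.28, while the share of Pfkm overlapped between groups. Without division by length, Pfkp led in both conditions, at 55.3% and 67.2% of the counts, and Pfkl held 34.2% and 23.4%. The order in PBS libraries thus depends on the merged exon lengths, 13401 bases for Pfkp and 6675 for Pfkl.

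The PFKFB enzymes set the level of fructose 2,6-bisphosphate, the strongest activator of phosphofructokinase-1, and here 1 gene rose while 2 fell by the adjusted p. Pfkfb3 (ENSMUSG00000026773, chr2:11471433-11554077), whose product has a kinase activity far above its phosphatase activity, had 2515, 2241 and 2519 counts in PBS and 5809, 5631 and 5526 counts in LPS libraries. It rose 3.23-fold (log2 fold change 1.69, SE 0.04, adjusted p = 7.59e-17). Pfkfb4 (ENSMUSG00000025648, chr9:108991778-109032228) had 3583, 3226 and 3380 counts in PBS and 1304, 1259 and 1342 counts in LPS libraries. All of its LPS libraries lay below all PBS libraries, and its level was 1.88-fold lower (log2 fold change -0.91, SE 0.04, adjusted p = 3.86e-13), just short of the fold criterion, which it passed at -1.32 with library size alone and at -1.05 with upper quartile scaling. Pfkfb2, known as the heart isozyme, fell from 11.9 ± 0.767 to 8.14 ± 0.091 CPM (log2 fold change -0.54, adjusted p = 5.76e-06).

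The most abundant PFKFB transcript therefore differed between conditions. Pfkfb4 made up 64.4%, 63.8% and 63.0% of PFKFB RNA per kilobase in PBS libraries and 24.9%, 24.8% and 26.3% in LPS libraries. Pfkfb3 went the other way, from 29.1%, 28.6% and 30.3% to 71.6%, 71.6% and 70.0%. The family total changed less than either gene, from 23.6 ± 0.551 to 31.5 ± 0.705 CPM per kb. Over 9 such families, 19 of 24 shares did not overlap between the groups, in a data set where the levels of 33.9% of all genes were separated upward and 36.6% downward. In families of 2 genes the shares mirror each other, and 1 of the 19 is Pdk4, with 1 to 6 counts per library. For 3 libraries against 3 the smallest p of a two-sided exact permutation test is 0.1, which these 19 shares reached (0.13 after Benjamini-Hochberg adjustment over the 24).

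**Figure D2:**
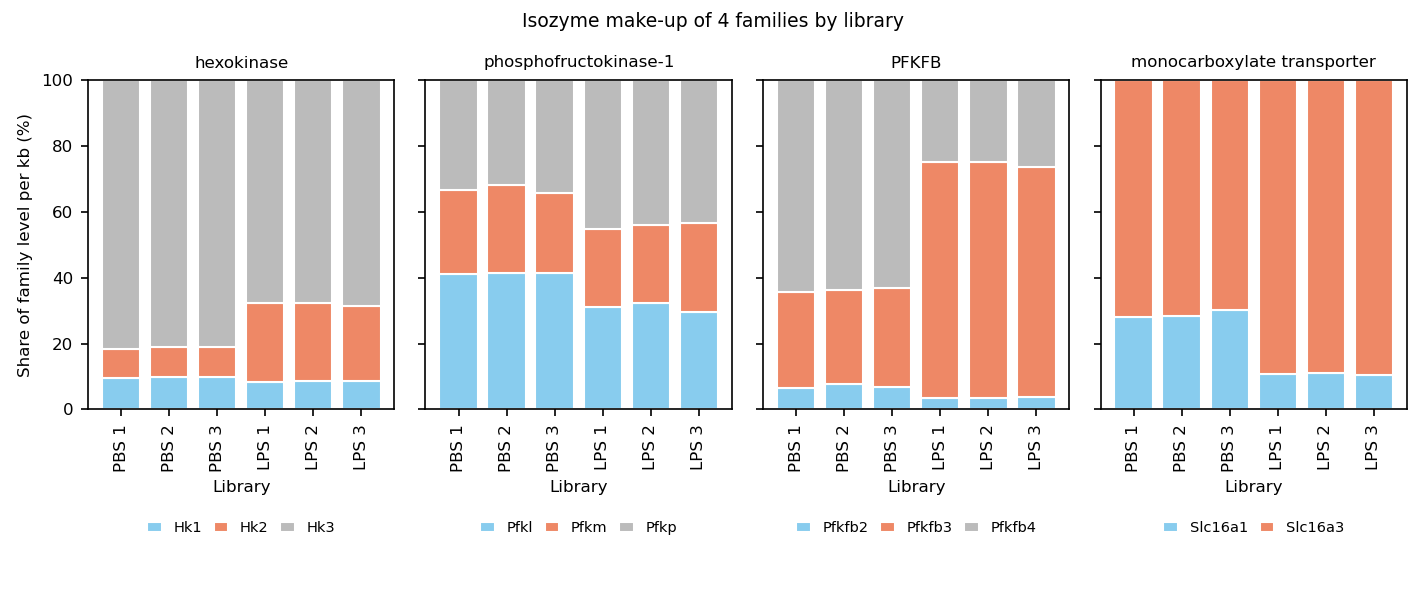
Share of each isozyme in the level of its family per kilobase of exon (percent, stacked to 100), in each of the 3 PBS and 3 LPS libraries, for hexokinase, phosphofructokinase-1, PFKFB and 2 monocarboxylate transporters (Slc16a1 and Slc16a3). The PFKFB panel shows Pfkfb3 going from 29.3% to 71.1% on average, and Slc16a3 goes from 71.1% to 89.3%.

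The enzymes in the middle of glycolysis had small differences. Of the 9 steps from Gpi1 to Ldha that rest on a single main gene, none passed both criteria (background 10.5% rising and 10.4% falling, so that few are expected among 9 genes), and their log2 fold changes lay between -0.13 and 0.23. Gpi1, which interconverts glucose and fructose 6-phosphate, Pgk1, the ATP-forming phosphoglycerate kinase, Eno1, the enolase, Pkm, the pyruvate kinase, and Ldha passed the adjusted p upward (background 32.9%), at 0.13, 0.19, 0.09, 0.11 and 0.23. Tpi1, the triose phosphate isomerase, passed it downward (log2 fold change -0.13, adjusted p = 0.00135), and Aldoa, Gapdh and Pgam1 did not pass it. With library size alone all 9 were negative, and with upper quartile scaling 7 of the 9 were, while Tpi1 was negative under every setting. Pkm is an example, with 1123, 1118 and 1078 CPM in PBS and 1187, 1214 and 1170 CPM in LPS libraries after TMM, but 53480, 50523 and 49733 raw counts in PBS and 39818, 39616 and 39818 in LPS libraries. The 9 genes together made up 0.357% to 0.369% of all counts in PBS and 0.290% to 0.297% in LPS libraries, while their summed TMM-scaled levels were 3100 to 3214 and 3327 to 3439 CPM.

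Count ratios within a library do not depend on scaling. The log2 ratios of Slc2a1, Slc2a6 and Hk2 to each of the 9 enzymes were higher in all 3 LPS libraries than in all 3 PBS libraries, by 2.30 to 2.67, 1.63 to 2.00 and 1.67 to 2.03 on average. The log2 ratio of Slc2a1 to Pkm counts was -5.89, -5.88 and -5.83 in PBS libraries and -3.40, -3.42 and -3.50 in LPS libraries, a difference of 2.43. Aldoc, the brain type of aldolase, was a minor partner of Aldoa at 3.49% ± 0.060 of aldolase RNA per kilobase in PBS and 3.67% ± 0.181 in LPS libraries, with overlapping groups. The low row of Aldoa (ENSMUSG00000114515, chr7:126800790-126809108), which lies just upstream of the main gene, had 14, 15 and 14 counts in PBS and 3, 6 and 3 counts in LPS libraries. Its fall (log2 fold change -1.35, SE 0.43, adjusted p = 0.0106) rested on few reads. It was lost with DESeq2, with a minimum of 10 counts in every library (which removed it) and without LPS replicate 1, where the adjusted p was 0.0501.

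Several of these enzymes share sequence with other annotated genes, and how reads matching several places were counted is not given in the sources used here. Of all 50-base stretches in their transcripts, 53.9% of those of Pgk1, 36.2% of Pgam1, 26.0% of Eno1, 25.8% of Pkm and 25.1% of Gapdh also occurred in another gene, and for Gapdh these were 223 genes. Gapdh, a common reference gene, had only 12.1 ± 0.503 CPM per kb in PBS, beside 242 ± 6.31 for Aldoa and 221 ± 4.97 for Pkm, so its level here is uncertain. Of the 8 genes that rose, Slc2a6, Hk2, Slc16a3 and Egln3 shared no stretch, and Hif1a shared the most at 5.74%. On the same strand, Gm29427 overlaps 17.4% of the exon bases of Pfkfb2 and Gm49759 overlaps 15.3% of those of Pkm. The other same-strand overlaps were 10.2% of Pfkm with Gm26513 and 2.5% of Hif1a with Gm49321. On the opposite strand the largest were 22.3% of Bnip3, 16.1% of Pdha1 and 11.5% of Gpi1. The strand setting of the counts is not given in the sources used here.

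Lactate genes rose at the export step. Slc16a3 (ENSMUSG00000025161, chr11:120948480-120960868), which encodes MCT4, the transporter suited to releasing lactate, had 1818, 1849 and 1768 counts in PBS and 5968, 5852 and 6116 counts in LPS libraries. The LPS libraries were all far above the PBS libraries, and the rise was 4.57-fold (log2 fold change 2.19, SE 0.04, adjusted p = 3.28e-19). Slc16a1, which encodes the widely expressed MCT1, went from 13.2 ± 0.777 to 17.8 ± 0.585 CPM (log2 fold change 0.43, adjusted p = 1.06e-05, but 0.03 with library size alone). Slc16a3 thus went from 72.0%, 71.6% and 69.8% of these 2 transporters per kilobase to 89.3%, 89.0% and 89.6%. Another monocarboxylate transporter, Slc16a7 (of the further glycolysis list, named after its values were seen), is not part of these shares. It had 6.85 ± 0.477 CPM per kb in PBS and 8.87 ± 0.271 in LPS libraries, beside 7.36 ± 0.291 and 33.6 ± 0.185 for Slc16a3. Its log2 fold change was 0.37 (adjusted p = 8.2e-07), but -0.03 with library size alone. Ldha, which favours the conversion of pyruvate to lactate, rose 1.18-fold from 326 ± 7.18 to 383 ± 5.64 CPM, and already made up 97.9% ± 0.444 of lactate dehydrogenase RNA per kilobase in PBS libraries. Ldhb, its counterpart, had 135, 139 and 189 counts in PBS and 99, 94 and 103 in LPS libraries and did not pass the adjusted p (log2 fold change -0.18, SE 0.14, adjusted p = 0.284). PBS replicate 3 stood apart there, and without it the log2 fold change was -0.0017.

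At the pyruvate dehydrogenase step the RNA of the kinases fell modestly or did not pass the test. These kinases switch the complex off, and Pdk1 is a known HIF target. Pdk1 had 65.7, 63.2 and 65.8 CPM in PBS and 50.4, 52.7 and 52.1 CPM in LPS libraries, without overlap, and fell by 0.33 on the log2 scale (SE 0.04, adjusted p = 5.63e-07). Pdk2 fell by 0.38 (SE 0.10, adjusted p = 0.0029), and Pdk3 was at 10.2 ± 0.867 and 10.5 ± 0.688 CPM (adjusted p = 0.716). Among subunits of the enzyme itself, Pdha1 and Pdhb had log2 fold changes of -0.05 (SE 0.04) and 0.04 (SE 0.05), with adjusted p of 0.241 and 0.471 and overlapping groups. Its other subunits Dlat, Pdhx and Dld (of the further glycolysis list, named after their values were seen) were at -0.06, -0.06 and 0.41. Their adjusted p were 0.267, 0.376 and 1.47e-08, and with library size alone Dld was at 0.01. The phosphatases that oppose the kinases, Pdp1 and Pdp2 (of the further glycolysis list, named after their values were seen), fell by 0.90 (adjusted p = 2.61e-11) and 0.86 (adjusted p = 8.86e-10) on the log2 scale, short of the fold criterion, which both passed under upper quartile scaling and with library size alone.

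In the HIF pathway, the factor and some of its known targets rose and others did not. Vegfa (ENSMUSG00000023951, chr17:46016993-46032369), which encodes the main growth factor for blood vessels, had 3525, 3504 and 3443 counts in PBS and 32386, 33080 and 30469 counts in LPS libraries. This was the largest change among the 36 genes, a 12.7-fold rise from 75.4 ± 1.89 to 958 ± 59.4 CPM (log2 fold change 3.67, SE 0.05, adjusted p = 4.11e-21), and the difference within batches was between 3.58 and 3.71. Hif1a (ENSMUSG00000021109, chr12:73901375-73947530) had 5354, 4899 and 5622 counts in PBS and 9092, 8521 and 9477 counts in LPS libraries. Its groups did not overlap and it rose 2.36-fold (log2 fold change 1.24, SE 0.04, adjusted p = 1.04e-14), but with library size alone it stood at 0.84, under the fold criterion. Bnip3, a mitophagy receptor and known HIF target, was at 20.1 ± 0.668 and 18.5 ± 1.49 CPM (log2 fold change -0.11, SE 0.06, adjusted p = 0.113). Of the 50-base stretches of Bnip3, 47.2% also occurred in another gene, and Gm45507 on the opposite strand overlaps 22.3% of its exons. The level of Bnip3 is therefore less certain. Within each library, the log2 ratio of Vegfa to Bnip3 counts went from 1.90, 1.99 and 1.84 in PBS to 5.63, 5.92 and 5.54 in LPS libraries.

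The 3 prolyl hydroxylases differed as well. Egln3, which encodes PHD3 and is itself known as a HIF target (ENSMUSG00000035105, chr12:54178981-54203860), was scarce, with 27, 25 and 17 counts in PBS and 47, 45 and 51 counts in LPS libraries. The groups did not overlap and it rose 2.86-fold (log2 fold change 1.52, SE 0.22, adjusted p = 8.85e-06). Egln1, which encodes the main oxygen sensor PHD2, fell by 0.18 on the log2 scale (SE 0.05, adjusted p = 0.00461), and Egln2 had 49.0, 55.0 and 47.1 CPM in PBS and 48.2, 54.5 and 47.2 CPM in LPS libraries, with overlapping groups (log2 fold change -0.01, SE 0.06, adjusted p = 0.871). Despite its rise, Egln3 made up only 0.708% ± 0.137 of hydroxylase RNA per kilobase in PBS and 2.11% ± 0.202 in LPS libraries.

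**Figure D3:**
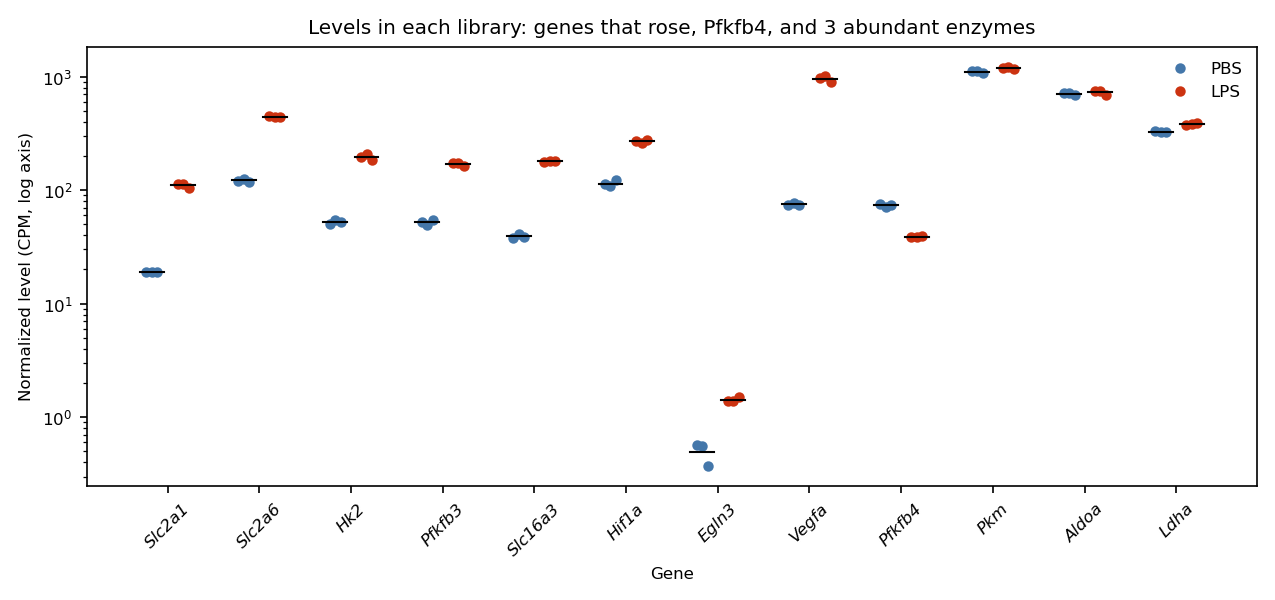
Normalized level (CPM, log axis) in each of the 3 PBS (blue) and 3 LPS (red) libraries of the 8 genes that rose, of Pfkfb4 and of the abundant enzymes Pkm, Aldoa and Ldha, with a line at each group's mean. Vegfa reaches 895 to 1014 CPM after LPS, close to Pkm at 1170 to 1214 CPM, although it started at 74.0 to 77.6 CPM.

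The order of the 36 genes by level per kilobase changed in its middle more than at its top. Aldoa and Pkm had the highest mean levels in both conditions, at 242 ± 6.31 and 221 ± 4.97 CPM per kb in PBS and 250 ± 11.2 and 238 ± 4.42 in LPS libraries, and in the latter neither Aldoa and Pkm nor Pkm and Vegfa (224 ± 13.9) differed beyond their spread. Vegfa went from place 14 in PBS, where it did not differ from Egln2 and Pdha1 beyond their spread (17.6 ± 0.441, 18.0 ± 1.48 and 17.6 ± 0.466 CPM per kb), to place 3 in LPS libraries. Slc2a6 went from place 9 to 4, Hk2 from 20 to 14, Slc16a3 from 25 to 13, Slc2a1 from 28 to 15 and Pfkfb3 from 26 to 16. Pfkfb4 went from place 15 to 25. In LPS libraries, Hk2 at 32.8 ± 2.03 CPM per kb did not differ beyond the spread from Slc16a3 at 33.6 ± 0.185 or Slc2a1 at 31.3 ± 1.53. Pdk4, Egln3, Pfkfb2, Pdk2 and Ldhb held the lowest 5 places in both conditions.

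Genes beside the 36 were taken from 3 lists made from general knowledge, with earlier results of these data known. Of 38 further genes of glycolysis, gluconeogenesis and pyruvate handling, 28 were tested, and 1 rose past both criteria (3.57%, background 10.5%) and none fell. That gene was Gpd2, the mitochondrial glycerol 3-phosphate dehydrogenase that carries glycolytic electrons to the respiratory chain, with 1051, 980 and 1001 counts in PBS and 2198, 2022 and 2144 counts in LPS libraries (log2 fold change 1.54, SE 0.04, adjusted p = 5.82e-16). With the adjusted p alone, 7 of the 28 rose (25.0%, background 32.9%) and 8 fell (28.6%, background 34.9%), and with the replicate block 6 rose because Eno1b no longer passed (adjusted p = 0.0546). Of 10 pentose phosphate genes, 9 were tested. By the adjusted p alone, 3 rose (33.3%, background 32.9%) and 3 fell (33.3%, background 34.9%). None rose past both criteria and 1 fell (11.1%, background 10.4%). This was Shpk, the sedoheptulose kinase (also called CARKL), with 196, 194 and 208 counts in PBS and 32, 43 and 38 counts in LPS libraries (log2 fold change -1.93, SE 0.14, adjusted p = 1.05e-09).

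Of 39 further hypoxia-related genes, 36 were tested, 9 rose past both criteria (25.0%, background 10.5%) and 3 fell (8.33%, background 10.4%). The rising count was 7 under upper quartile scaling and with library size alone, where Lox and Ero1l missed the fold criterion, and 7 with at least 10 counts in every library, which removed Adm and Nos2. The largest rises were Adm, the vasodilator peptide adrenomedullin (log2 fold change 3.80, SE 0.24), Nos2, the inducible nitric oxide synthase (3.23, SE 0.25), and Ddit4, an inhibitor of mTORC1 (3.21, SE 0.11). Adm and Nos2 started from few reads, with 8, 7 and 12 and with 13, 10 and 8 counts in PBS libraries, and reached 90, 103 and 82 and 70, 57 and 85 counts in LPS libraries. The transcription regulators Mxi1 (2.52), Bhlhe40 (2.33) and Cited2 (1.90) and the stress-induced Ndrg1 (1.86) rose too, and the median of the 36 was 0.20. The 3 that fell were Angptl4, an inhibitor of lipoprotein lipase (log2 fold change -2.34, SE 0.10), Ankrd37 (-1.65, SE 0.18) and Vhl (-1.12, SE 0.06), where Vhl is part of the ligase that removes hydroxylated HIF-1α. Lox, Ero1l, Ankrd37 and Vhl were named after their values were seen. Many genes of this list are also known to respond to inflammatory signals, so the list is not a measure of hypoxia alone.

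**Figure D4:**
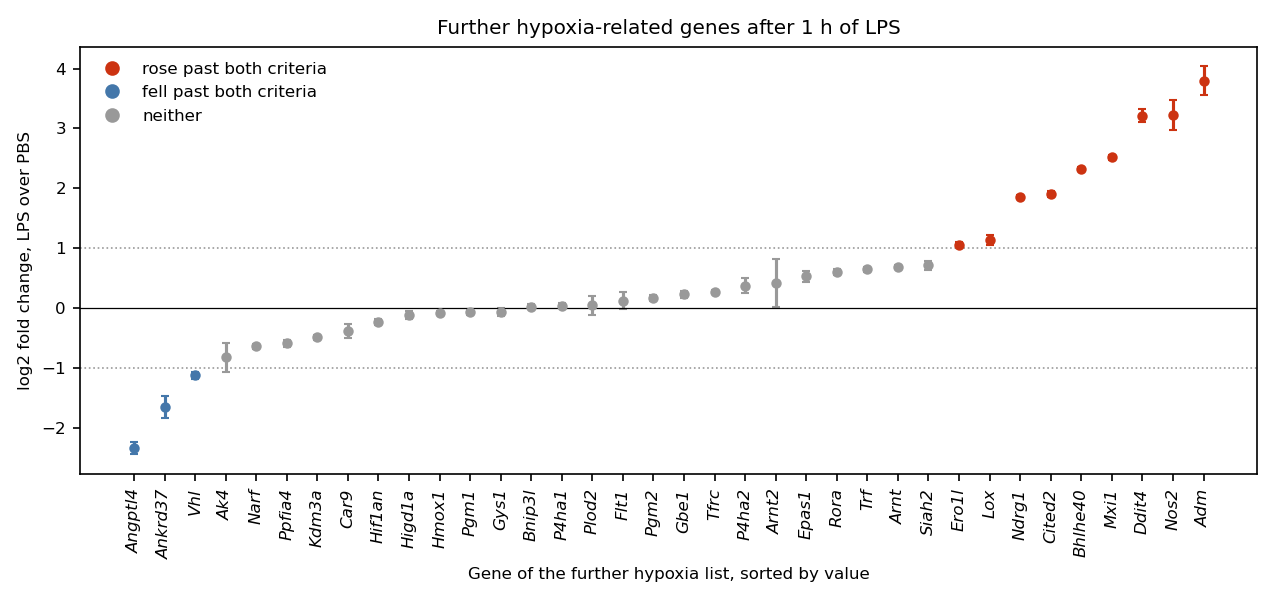
Log2 fold change (LPS over PBS) with SE, n = 3 libraries per group, of the 36 tested genes of the further hypoxia list, sorted by value; dotted lines mark -1 and 1. The list spreads in both directions, from -2.34 for Angptl4 to 3.80 for Adm, and 24 genes did not pass both criteria.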

How the data were processed

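The authors sequenced total RNA, aligned reads to GRCm38 with HISAT2 2.1.0 and deposited raw counts per gene from featureCounts 2.0.0; annotation release, strand setting and the treatment of multi-mapping reads are not given in the sources used here. Symbols and coordinates (counted from 1) are those of GENCODE M21. LPS was compared with PBS by edgeR 4.0.16 under R 4.3.3 (filterByExpr, 15687 genes kept, TMM, quasi-likelihood test, Benjamini-Hochberg adjustment over all genes kept). The SE was derived from the F statistic. CPM per kb divides the scaled CPM by the merged exon length of the gene. A level of 3 counts, taken as the floor, was 0.0630 to 0.0919 CPM, for counting error only. Alternatives were other scalings, filters, DESeq2 1.42.0, limma 3.58.1 voom, a replicate block and leaving out each library. The labels give same-numbered libraries 1 batch, and their deviations correlated at -0.0139, 0.0822 and 0.0387. All 36 genes were named, and from each further list at most the 8 largest changes past both criteria, apart from those said to be named after their values were seen. Eno1b, Hmox1 and Pgls are further exceptions, named because the replicate block changed whether they passed the adjusted p. The genes and lists were chosen with earlier results of these data known. Promoter windows are from RefSeq (GRCm38.p6), matched by symbol for 36 of 36 genes.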

Additional observations from a re-analysis of the deposited data

How the results depend on the processing

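Scaling mattered most, since the median of all genes moved with it. Of the 8 genes that rose, 7 passed both criteria under all 15 other settings, and Hif1a under 14, missing the fold criterion with library size alone. With library size alone, log2 fold changes turned negative for Hk1 (-0.10), Hk3 (-0.15), Gpi1 (-0.28), Pfkl (-0.40), Pfkm (-0.0090), Aldoa (-0.36), Aldoc (-0.28), Gapdh (-0.33), Pgk1 (-0.21), Pgam1 (-0.35), Eno1 (-0.32), Pkm (-0.30), Ldha (-0.17), Pdk3 (-0.37) and Pdhb (-0.37), 9 rows rose and 25 fell by the adjusted p, and 2 rows fell past both criteria (Pfkfb4 beside the low Aldoa row), as did 2 further glycolysis genes and 5 further hypoxia genes. With upper quartile scaling, Gpi1 (-0.015), Pfkl (-0.14), Aldoa (-0.10), Aldoc (-0.022), Gapdh (-0.064), Pgam1 (-0.085), Eno1 (-0.056), Pkm (-0.038), Pdk3 (-0.11) and Pdhb (-0.10) turned negative, 14 rows rose and 13 fell by the adjusted p, and 2 rows and 2 further glycolysis genes fell past both criteria. The count of rows falling past both criteria was 0 with at least 10 counts in every library, with DESeq2 and with 1 row a gene (chosen after seeing the data), and 0 to 1 when leaving out a library, with 0 without LPS replicate 1. Near 0, Pfkl was -0.017 without a filter and -0.0092 with at least 10 counts, and Egln2 was 0.0069 with DESeq2's size factors and its test. Leaving out single libraries gave -0.032 to 0.037 for Pfkl, -0.031 to 0.082 for Pdk3 and -0.077 to 0.057 for Egln2. Rows rising by the adjusted p were 17 without a filter and with at least 10 counts, where Aldoc and Eno1 were lost, and 16 to 19 when leaving out a library. The adjusted p was lost by Aldoc without PBS replicate 3 or LPS replicate 1 or 3, by Eno1 without PBS replicate 2 or 3 or LPS replicate 1 or 2, and by Pkm without PBS replicate 3 (log2 fold change 0.09). With the replicate block, which pairs libraries of a batch, 8 rows rose and 1 fell past both criteria and no call of the 36 genes changed; among the further genes Eno1b lost the adjusted p, and Hmox1 (adjusted p = 0.0298) and Pgls (adjusted p = 0.00849) gained it. Depth limited Pdk4, which was too low to test.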
